A study of Mus musculus with 4 samples.

Results

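Protocadherins are cadherin-related adhesion proteins, and the 36 protein-coding mouse genes whose symbols start with Pcdh in the GENCODE vM1 annotation of mm9 were examined here out of 22367 protein-coding genes. They comprised 24 clustered genes on chromosome 18, namely Pcdha11, Pcdha3, 21 Pcdhb genes and Pcdhgc5, and 12 non-clustered genes, of which Pcdh1 and Pcdh12 also lie on chromosome 18. The samples were 4 chromatin immunoprecipitation libraries from E14 mouse embryonic stem cells. One library profiled histone H3 trimethylated at lysine 4 (H3K4me3) in cells transduced with a lentivirus encoding Jarid1b shRNA, and one profiled the same mark in cells transduced with a scramble virus, both from puromycin-selected cultures. The other 2 libraries, replicates 1 and 2, profiled the protein Jarid1b in E14 cells that the labels do not describe as transduced.

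Jarid1b, also called Kdm5b, is an enzyme that takes methylation off lysine 4 of H3, and H3K4me3 marks the starts of active and poised genes. In the clustered families, a neuron chooses a few of many alternative first exons or single-exon genes, and the protein combination gives the cell surface an identity used in self-recognition of its branches. Each variable Pcdha and Pcdhg exon has its own promoter and is spliced to constant exons that its family shares, whereas each Pcdhb protein is encoded by a single large exon. The non-clustered protocadherins are separate genes with roles in cell sorting, axon growth and synapses, and they are expressed from early development on.

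Each value below is a number of reads with a distinct position on a strand, after a shift of 75 bases towards the fragment centre, and RPM is that number scaled to 1000000 such reads in the library. The libraries held 2635705 such reads for H3K4me3 with Jarid1b shRNA, 5158330 for H3K4me3 with scramble, and 4336767 and 1602370 for Jarid1b replicates 1 and 2. One read was therefore worth 0.379 RPM in the Jarid1b shRNA library and 0.194 RPM in the scramble library. The start window ran 1 kb each side of the annotated gene start, and a window was called enriched where a one-sided Poisson test of its reads, set against the genome rate or the rate 10 kb each side, whichever was larger, had a Benjamini-Hochberg adjusted p under 0.05. With 1 H3K4me3 library per condition, a difference between them is a difference between those libraries, has no replicate check and is given with an exact 95% Clopper-Pearson interval that covers counting error only. A window was compared if it was enriched in either library and held at least 20 reads, and was called higher or lower at 2-fold or more with an interval that excluded equality. The Jarid1b libraries were not independent, because 16.8% of the plus-strand positions in replicate 2 coincided with a position in replicate 1, against 1.24% at other offsets, so Jarid1b counts are given as 1 experiment with no spread.

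The sequences just upstream of starts show how far the non-clustered genes differ in CpG content, a property that is described against H3K4me3 further on. Each line gives the 250 bases before a start on mm9, read from the genome 5′ to 3′ on the strand of the gene, with every CG in capitals.
Pcdh15, chr10:72561840-72562089, plus strand: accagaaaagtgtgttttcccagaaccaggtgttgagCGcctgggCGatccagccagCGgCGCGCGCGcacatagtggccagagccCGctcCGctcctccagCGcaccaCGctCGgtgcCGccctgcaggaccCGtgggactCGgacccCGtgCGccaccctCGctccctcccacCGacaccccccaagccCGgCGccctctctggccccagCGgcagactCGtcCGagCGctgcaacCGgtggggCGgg
Pcdh7, chr5:58109010-58109259, plus strand: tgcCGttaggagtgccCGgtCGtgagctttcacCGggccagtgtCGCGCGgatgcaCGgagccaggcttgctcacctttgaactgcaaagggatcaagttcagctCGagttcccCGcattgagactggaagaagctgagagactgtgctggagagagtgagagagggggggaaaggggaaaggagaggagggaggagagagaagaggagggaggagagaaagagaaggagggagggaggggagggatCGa
Pcdh20, chr14:88871204-88871453, minus strand: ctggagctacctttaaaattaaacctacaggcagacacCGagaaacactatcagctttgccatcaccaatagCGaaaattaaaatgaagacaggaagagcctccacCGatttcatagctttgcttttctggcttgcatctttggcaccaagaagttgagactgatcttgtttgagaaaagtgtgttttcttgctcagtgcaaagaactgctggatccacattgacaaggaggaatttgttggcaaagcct
Pcdh9, annotated gene start, chr14:94287952-94288201, minus strand: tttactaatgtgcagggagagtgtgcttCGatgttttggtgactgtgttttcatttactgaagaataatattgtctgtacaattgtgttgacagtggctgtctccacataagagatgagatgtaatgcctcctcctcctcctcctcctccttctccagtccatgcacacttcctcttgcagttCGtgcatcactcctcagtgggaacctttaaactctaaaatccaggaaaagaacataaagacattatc
Pcdh9, RefSeq start, chr14:94289899-94290148, minus strand: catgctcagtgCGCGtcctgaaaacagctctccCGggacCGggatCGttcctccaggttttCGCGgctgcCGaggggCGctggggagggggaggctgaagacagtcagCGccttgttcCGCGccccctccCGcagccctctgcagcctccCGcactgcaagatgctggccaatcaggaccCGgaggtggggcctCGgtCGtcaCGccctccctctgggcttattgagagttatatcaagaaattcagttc
Pcdh15 held 27 CG dinucleotides in this stretch, Pcdh7 held 11 and Pcdh20 held 3. Pcdh9 held 2 upstream of its annotated gene start and 18 upstream of its RefSeq start. Over all 22367 genes the median was 8, and 92.5% of genes held at least 1.

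At their annotated gene starts the non-clustered genes were mostly marked by H3K4me3 and the clustered genes, most of them Pcdhb genes, mostly were not. Of the 12 non-clustered genes, 9 were enriched in the Jarid1b shRNA library and the same 9 in the scramble library, against 59.9% of all protein-coding genes with Jarid1b shRNA and 60.0% with scramble. Of the 24 clustered genes, 3 were enriched in the Jarid1b shRNA library (Pcdha11, Pcdhb1 and Pcdhgc5) and 2 in the scramble library (Pcdha11 and Pcdhgc5). Here and in later counts of gene starts, the starts of Pcdha11 and Pcdhgc5 are those that RefSeq names Pcdha1 and Pcdhga3. The starts that RefSeq names Pcdha11 and Pcdhgc5 lie 80.6 kb and 145 kb further downstream. Of these, the Pcdha11 start was enriched with scramble only and the Pcdhgc5 start in neither library. The median level of the non-clustered genes was 6.83 RPM with Jarid1b shRNA and 2.71 RPM with scramble. The median level of the clustered genes was 0.379 RPM with Jarid1b shRNA and 0.582 RPM with scramble. These clustered values describe mainly the Pcdhb genes, which make up 21 of the 24. Of the 10 annotated transcript starts of Pcdha11, described further below, 6 were enriched with Jarid1b shRNA and 8 with scramble. Of the 10 of Pcdhgc5, 4 were enriched with Jarid1b shRNA and 5 with scramble. Over all genes the medians were 9.49 RPM with Jarid1b shRNA and 6.01 RPM with scramble.

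**Figure D1:**
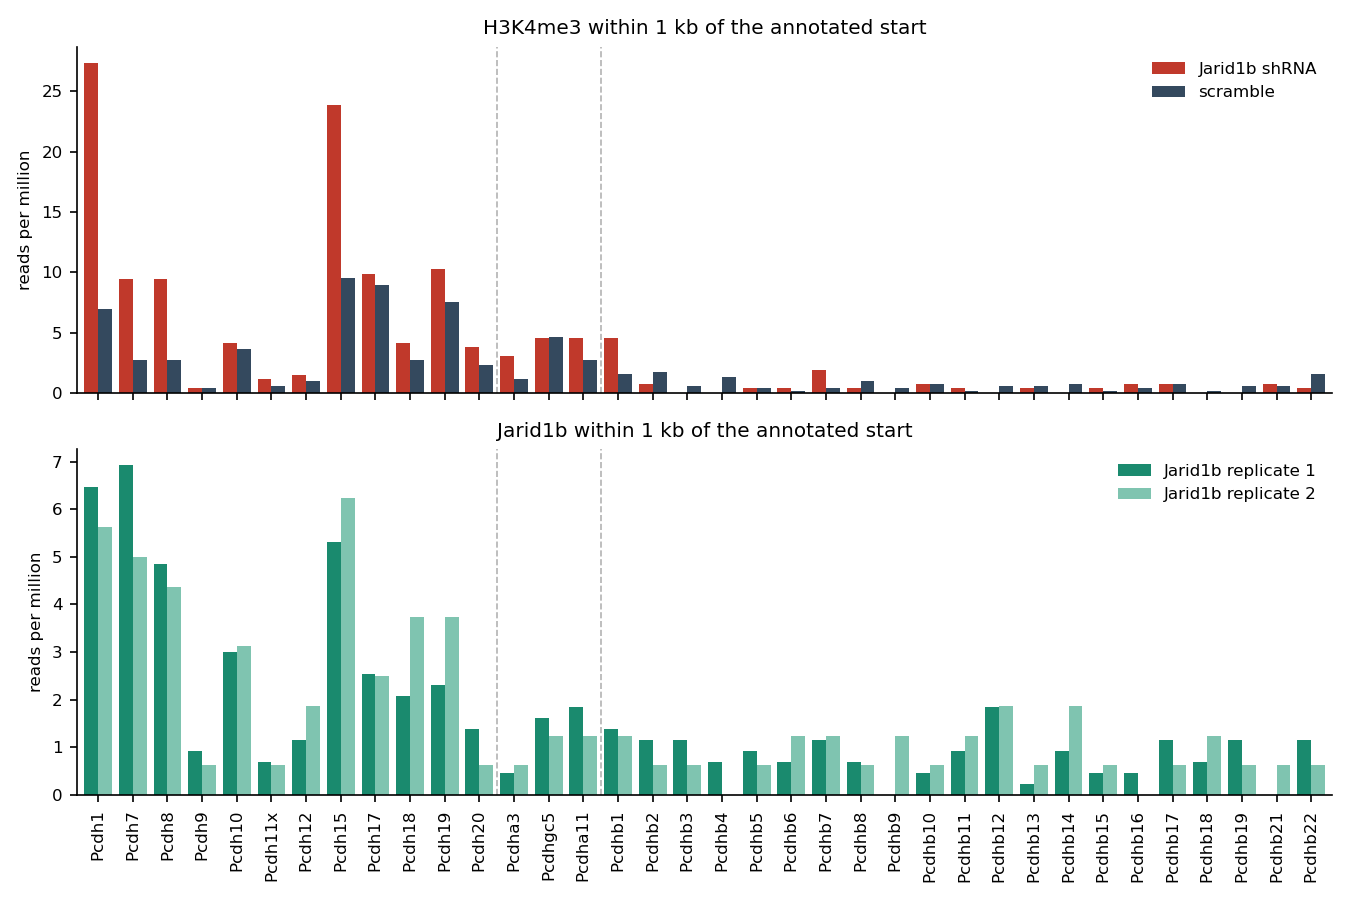
RPM within 1 kb of the annotated start of each of the 36 genes, as bars, for the 2 H3K4me3 libraries (upper panel) and the 2 Jarid1b libraries (lower panel). Dashed lines separate the non-clustered genes, the Pcdha and Pcdhg genes and the Pcdhb genes, and Pcdh1 and Pcdh15 stand highest with 27.3 and 23.9 RPM of H3K4me3 in the Jarid1b shRNA library.

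Among the long-tailed delta protocadherins, a subgroup that shares conserved motifs in its cytoplasmic domain, Pcdh1 had the most H3K4me3 at its annotated start. Pcdh1, an adhesion protein of epithelia and brain, had 72 reads (27.3 RPM) with Jarid1b shRNA and 36 reads (6.98 RPM) with scramble. This was the largest difference among the compared non-clustered genes, a log2 ratio of 1.97 (interval 1.37 to 2.59), and it was called higher. Pcdh7, known for roles in axon guidance, had 25 reads (9.49 RPM) with Jarid1b shRNA and 14 reads (2.71 RPM) with scramble. Its log2 ratio was 1.81 (0.81 to 2.86), and it was also called higher. Pcdh11x, an X-linked gene expressed in brain, had 3 reads in each library and was enriched in neither.

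Pcdh9, the remaining member of that subgroup and a neuronal gene, had 1 read with Jarid1b shRNA and 2 reads with scramble at its annotated gene start. The start that RefSeq gives for Pcdh9 lies 1947 bases upstream, as found by matching the RefSeq sequence to mm9. There it had 23 reads with Jarid1b shRNA and 36 reads with scramble, and it was enriched in both (adjusted p 1.89e-16 with Jarid1b shRNA and 7.51e-22 with scramble, one-sided Poisson test with Benjamini-Hochberg adjustment). The RefSeq start is the one whose upstream sequence above is rich in CG. The counts of enriched genes here keep the annotated start, where Pcdh9 was enriched in neither library.

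The other delta protocadherins, Pcdh8, Pcdh10, Pcdh17, Pcdh18 and Pcdh19, were all enriched in both libraries, and one of them was called higher. Pcdh8, which takes part in the movements of paraxial mesoderm and in synaptic remodelling, had 25 reads (9.49 RPM) with Jarid1b shRNA and 14 reads (2.71 RPM) with scramble, a log2 ratio of 1.81 (0.81 to 2.86). Within 500 bases each side the Pcdh8 ratio was 0.19, so its difference lay in the outer part of the window. Pcdh10, involved in axon growth, had 11 reads with Jarid1b shRNA and 19 with scramble, with a ratio of 0.18 (−1.04 to 1.33). Pcdh17, a synaptic protocadherin, had 26 reads with Jarid1b shRNA and 46 with scramble, with a ratio of 0.15 (−0.61 to 0.87). Pcdh18 had 11 reads with Jarid1b shRNA and 14 with scramble, with a ratio of 0.62 (−0.66 to 1.87). These 3 intervals include equality, and each also includes differences of more than 1.5-fold.

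Pcdh19, an X-linked gene whose human counterpart is mutated in a form of epilepsy, had 27 reads (10.2 RPM) with Jarid1b shRNA and 39 reads (7.56 RPM) with scramble, a log2 ratio of 0.44 (−0.33 to 1.18). At its transcript start 0.844 kb further downstream it had 51 reads with Jarid1b shRNA and 49 with scramble, a log2 ratio of 1.03 (0.43 to 1.62), which was called higher. The call at Pcdh19 thus depended on which annotated start was taken. Pcdh1 was called higher at its gene start and also downstream of it, with 24 reads with Jarid1b shRNA and 10 with scramble at a start 2.29 kb downstream, a ratio of 2.23 (1.11 to 3.46).

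Pcdh15, a component of the tip links of hair cells, had the second highest level of the 36 genes with Jarid1b shRNA and the highest with scramble. It had 63 reads (23.9 RPM) with Jarid1b shRNA and 49 reads (9.50 RPM) with scramble, and its log2 ratio of 1.33 (0.77 to 1.90) was called higher. This level and call belong to the annotated gene start of Pcdh15. The start that RefSeq gives for Pcdh15 lies 722525 bases downstream and had 1 read in each H3K4me3 library. Pcdh20 had 10 reads with Jarid1b shRNA and 12 with scramble, was enriched in both, and had a ratio of 0.71 (−0.66 to 2.04). Pcdh12, known from endothelium and placenta, had 4 reads with Jarid1b shRNA and 5 with scramble and was enriched in neither.

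Altogether 4 of the 9 compared non-clustered starts (Pcdh1, Pcdh7, Pcdh8 and Pcdh15) were called higher and 0 lower, against 24.0% higher and 2.37% lower among the 13273 compared promoters. All 9 ratios were positive with scaling to library size, as were 9223 of the 13273 compared promoters. Pcdh10 turned to −0.23 and Pcdh17 to −0.26 relative to the median of all promoters, and Pcdh19 to −0.42 with the trend with GC removed. The median of the 9 non-clustered ratios was 0.71, but the median over all compared promoters was itself 0.41, so the non-clustered median lay 0.30 above it. Relative to that overall shift 3 of the 4 starts were called higher, and Pcdh15 was not. The ratio rose with GC content over all compared promoters (Spearman's rho 0.63 across promoters, given as a description, since promoters share libraries and base composition). The called starts had GC contents between 56.9% (Pcdh8) and 63.9% (Pcdh1), and after the genome-wide trend with GC was removed, only Pcdh8 of the 4 was still called higher. The part of base composition in these differences beyond that was not tested.

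Marker genes also differed between the 2 H3K4me3 libraries. Of 8 embryonic stem cell markers, 7 were compared and 4 were called lower with Jarid1b shRNA (Nanog, Zfp42, Dppa5a and Tdgf1). The other compared markers were not called, with log2 ratios of −0.70 at Pou5f1, 0.23 at Sox2 and 0.69 at Klf4. The summed level of all 8 was 211 RPM with Jarid1b shRNA and 292 RPM with scramble. Of 6 neural markers found, 4 were compared and 2 were higher (Neurog1 and Syn1), while Tubb3 at 0.74 and Neurod1 at −0.45 were not called. All 6 summed to 54.3 RPM with Jarid1b shRNA and 30.8 RPM with scramble. Of 8 fibroblast markers, 3 were compared and 2 were higher (Twist1 and Twist2), while Thy1 at 0.97 was not called. All 8 summed to 66.8 RPM with Jarid1b shRNA and 25.2 RPM with scramble. Twist1 made up 34.1 and 11.1 RPM of these sums and Twist2 17.8 and 7.37 RPM. Col1a1, Col1a2, Col3a1, Lum and Postn each held under 20 reads. Over all compared promoters 24.0% were called higher and 2.37% lower, and the median log2 ratio was 0.41. Esrrb and Col3a1 had 0 reads with Jarid1b shRNA and Lum had 0 reads with scramble. The part of a shift in cell state in the protocadherin differences was not tested, and a change in a share of the cells cannot be told apart from a change in every cell.

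**Figure D2:**
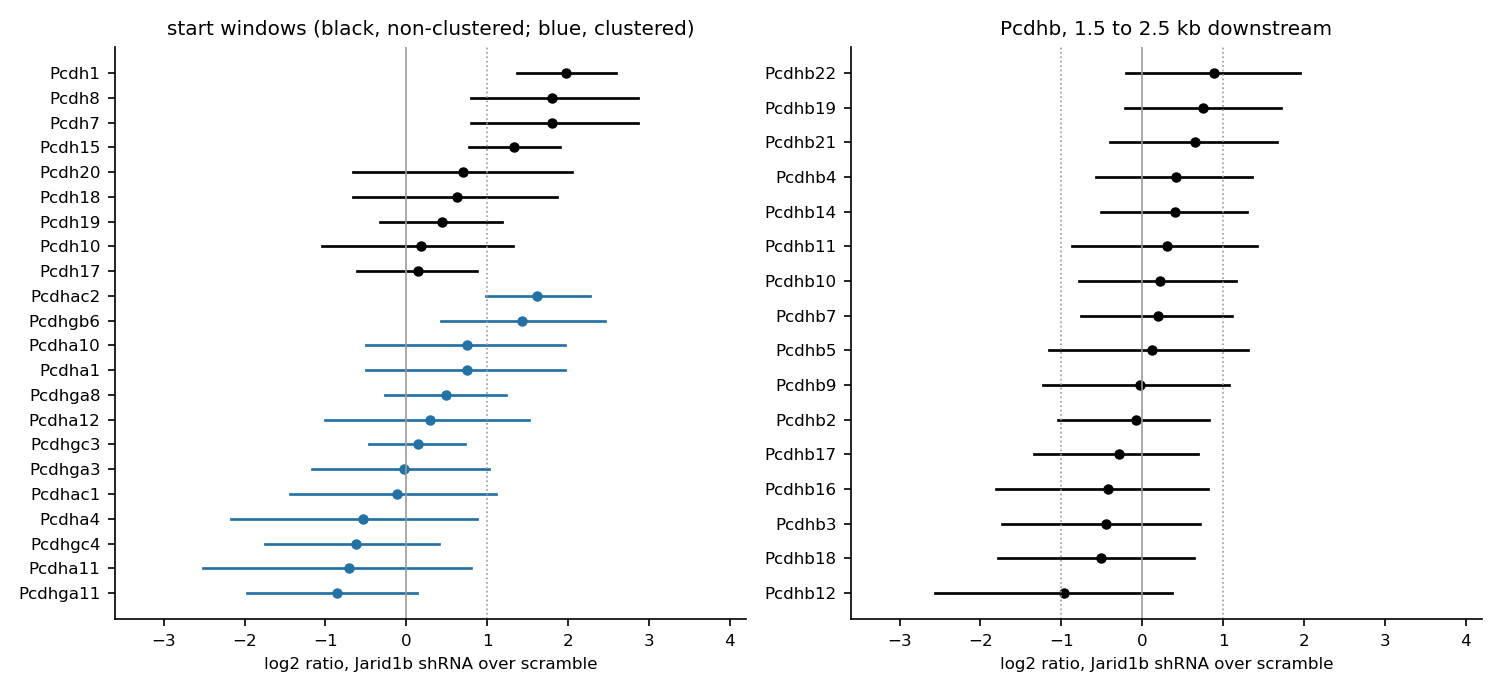
Log2 ratios of H3K4me3 RPM, Jarid1b shRNA over scramble, as points with exact 95% counting intervals as lines. The left panel shows compared start windows of non-clustered genes (black) and of clustered promoters by RefSeq name (blue), where Pcdh1 stands highest at 1.97, and the right panel shows the 16 compared Pcdhb windows 1.5 to 2.5 kb downstream of the start, none of which was called.

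The Pcdhb starts themselves carried no more H3K4me3 than the genome at large. Summed over the 21 genes, the start windows held 34 reads with Jarid1b shRNA, which was 0.786-fold (0.544 to 1.10) of the genome rate. They held 76 reads with scramble, which was 0.898-fold (0.707 to 1.12) of it. Only Pcdhb1, the first gene of the array, was enriched, and only in the Jarid1b shRNA library. It had 12 reads with Jarid1b shRNA and 8 with scramble, a log2 ratio of 1.55 (0.14 to 3.05) that was called higher. That call rests on 20 reads and was lost relative to the median of all promoters and in windows of 500 bases or 2 kb each side. The other 20 Pcdhb genes had between 0 and 5 reads with Jarid1b shRNA and between 1 and 9 with scramble.

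H3K4me3 reads at the Pcdhb genes lay downstream of the start instead, inside the coding exon. Summed over the 21 genes in steps of 500 bases, reads reached 14.2-fold of the genome rate with Jarid1b shRNA and 13.7-fold with scramble between 1.5 and 2 kb downstream. Between 2 and 2.5 kb they were at 7.6-fold with Jarid1b shRNA and 6.7-fold with scramble. The next step, from 2.5 kb on, was at 0.6-fold with Jarid1b shRNA and 0.2-fold with scramble. A window from 1.5 to 2.5 kb downstream was therefore counted at every gene, a choice made after the profiles were seen. The annotated coding sequence covered at least 81.5% of this window in the 21 genes, and it ended a median of 2535 bases from the start. Jarid1b reads were also highest between 1.5 and 2 kb, at 4.6-fold in replicate 1 and 5.8-fold in replicate 2. No input or IgG library was analysed, and the H3K4me3 fold over bins of matched GC content, given below, was lower.

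**Figure D3:**
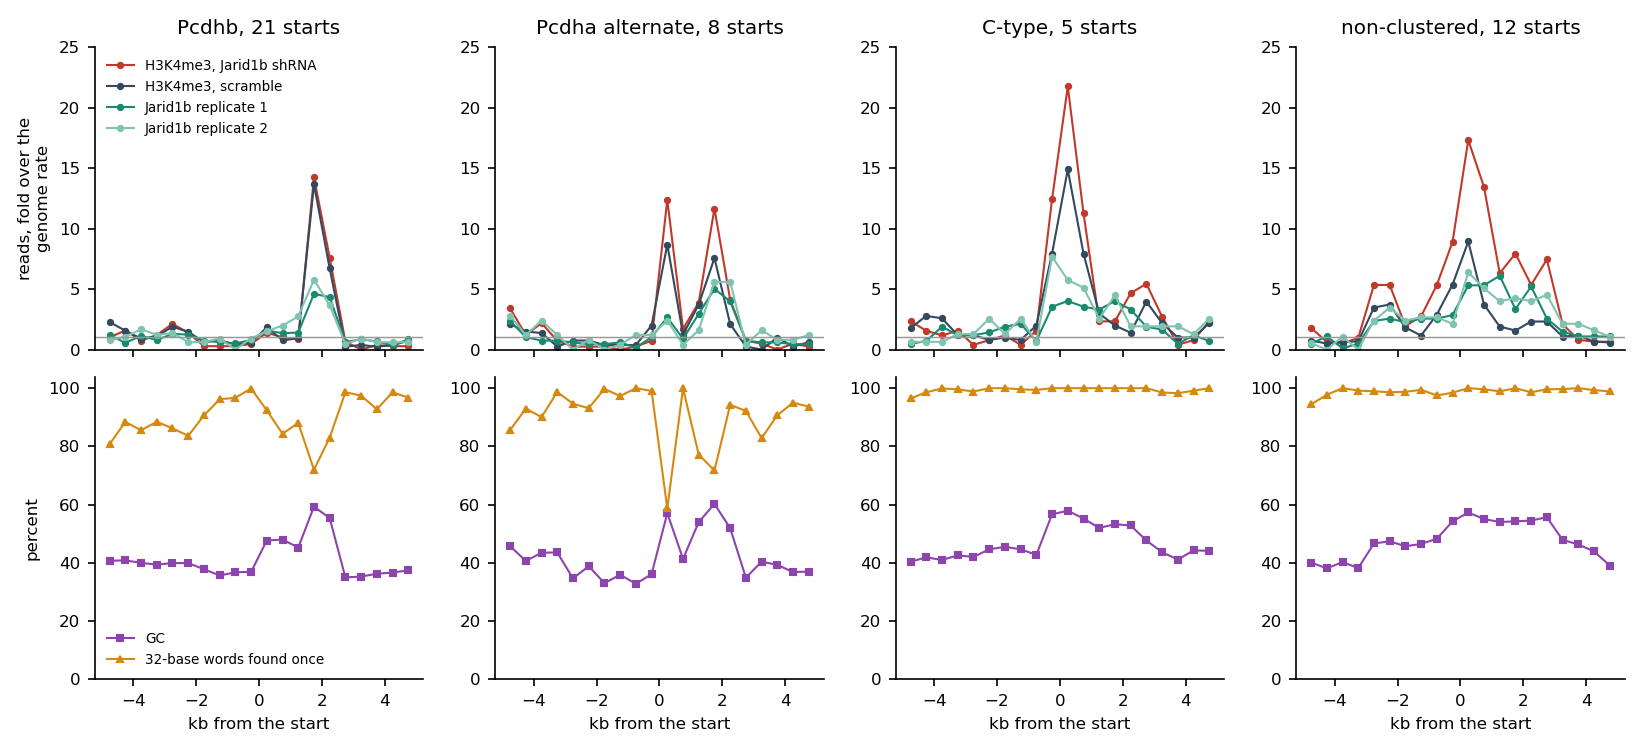
Upper panels: reads in 500-base steps from 5 kb upstream to 5 kb downstream of the start, as fold over the genome rate (grey line at 1), for the 4 libraries. Reads are summed over the Pcdhb, Pcdha alternate, C-type and non-clustered starts, and the alternate Pcdhg starts are not shown. Lower panels: mean GC content and percent of 32-base words that occur once in the genome in the same steps. H3K4me3 at the Pcdhb genes peaks at 14.2-fold with Jarid1b shRNA and 13.7-fold with scramble between 1.5 and 2 kb downstream, where GC content is 59.3% and words found once fall to 71.9%.

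In that downstream window 18 of the 21 Pcdhb genes were enriched in the Jarid1b shRNA library and 20 in the scramble library, against 4.51% of all genes with Jarid1b shRNA and 5.82% with scramble. Summed, the windows held 237 reads with Jarid1b shRNA, 10.96-fold of the genome rate (9.60 to 12.4), and 431 reads with scramble, 10.2-fold (9.24 to 11.2). The window had been placed on the peak of these same reads. The H3K4me3 enrichment calls, folds and shares in it, here and below, therefore describe that peak and do not test it. Pcdhb14 had 19 reads with Jarid1b shRNA and 28 with scramble, and Pcdhb19 had 19 with Jarid1b shRNA and 22 with scramble. Pcdhb2 had 16 reads with Jarid1b shRNA and 33 with scramble. Pcdhb1, the one gene enriched at its start, with Jarid1b shRNA only, was the exception downstream. It had 1 read there with Jarid1b shRNA and 3 with scramble, and Pcdhb6 and Pcdhb15 were enriched in the scramble library only.

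**Figure D4:**
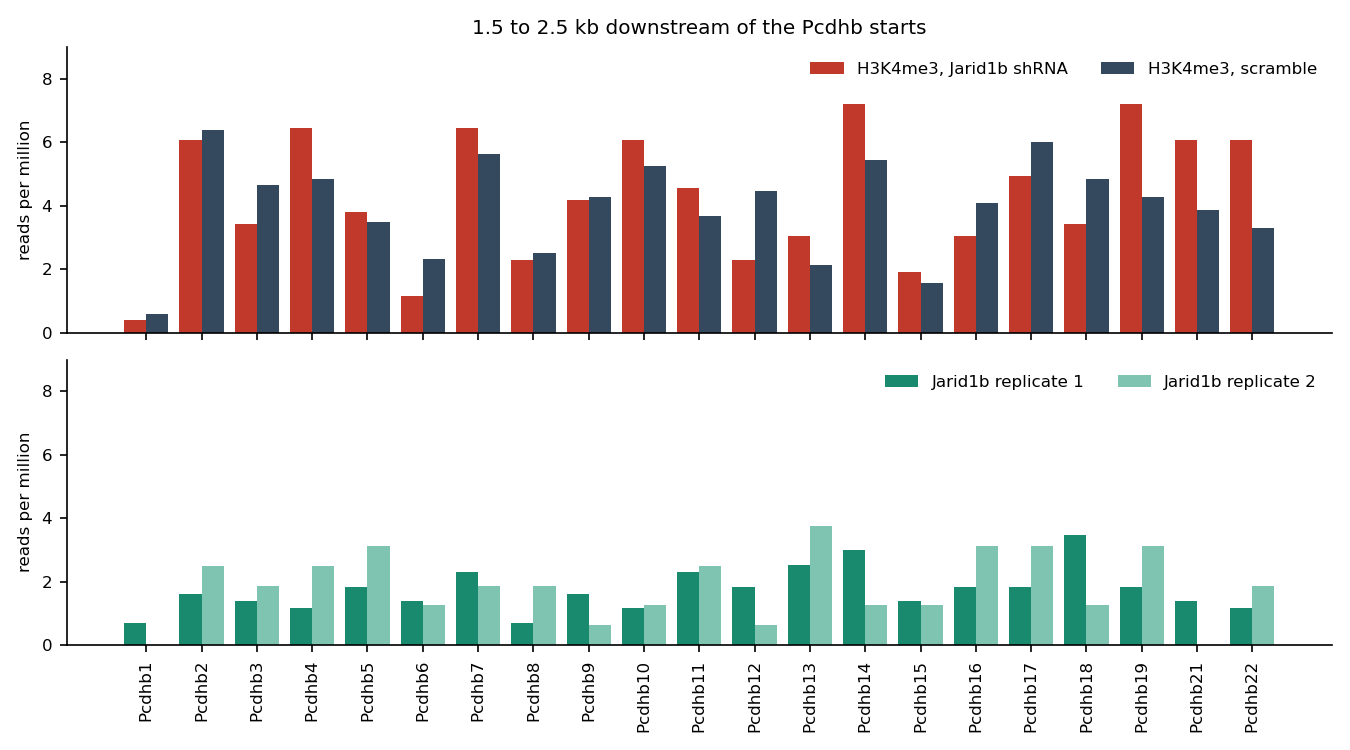
RPM in the window 1.5 to 2.5 kb downstream of each of the 21 Pcdhb starts, as bars, for the 2 H3K4me3 libraries (upper panel) and the 2 Jarid1b libraries (lower panel). Levels reach 7.21 RPM with Jarid1b shRNA and 6.40 RPM with scramble, and Pcdhb1 is lowest in both H3K4me3 libraries.

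None of the compared Pcdhb downstream windows was called different between the 2 H3K4me3 libraries. Of 16 compared, 0 were called higher and 0 lower, against 19.4% higher and 13.2% lower of the 1326 windows compared over all genes. The ratios lay between −0.97 at Pcdhb12 and 0.88 at Pcdhb22, with a median of 0.16. Of the 16, 9 were positive, against 677 of the 1326. Single windows allow larger differences, as the interval of Pcdhb12 reached −2.56 and that of Pcdhb22 reached 1.96. Among the 5 windows not compared for want of 20 reads, Pcdhb6 had 3 reads with Jarid1b shRNA and 12 with scramble, a ratio of −1.03 (−3.50 to 0.86). The summed reads gave a log2 ratio of 0.11 (−0.13 to 0.34), an interval that, with scaling to library size, leaves out a change of 1.5-fold in either direction. The median turned to −0.25 relative to the median of all promoters and to −0.59 after the trend with GC was removed, where 3 windows were called lower.

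Base composition and repeated sequence moved with this downstream signal. GC content had a median of 58.0% in the downstream windows of the Pcdhb genes, against 42.15% in their start windows. Bins of 1 kb with 58.0% to 61.5% GC that lay over 5 kb from any protein-coding start averaged 9.81-fold of the genome rate with Jarid1b shRNA and 7.66-fold with scramble. Against bins of matched GC content, the summed Pcdhb windows were at 1.66-fold (1.45 to 1.88) with Jarid1b shRNA and 1.95-fold (1.77 to 2.14) with scramble. With that background, 4 Pcdhb windows were enriched in the Jarid1b shRNA library and 8 in the scramble library. Among genes whose start window was not enriched and whose downstream window had 55% to 61% GC, 18 of 19 Pcdhb genes were enriched downstream with Jarid1b shRNA and 19 of 19 with scramble. The shares over all such genes were 29.6% with Jarid1b shRNA and 27.5% with scramble, in a window whose place had been chosen on the Pcdhb genes.

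The Pcdhb genes are near-identical over parts of this exon, so reads there can be hard to place. Words of 32 bases that occur once in the genome made up 77.5% of positions in the downstream windows, and 64.6% of the Jarid1b shRNA reads and 68.9% of the scramble reads lay on such words. Counted on those words alone, the sums were 9.13-fold of the genome rate (7.74 to 10.7) with Jarid1b shRNA and 9.05-fold (8.05 to 10.1) with scramble. On those words 13 Pcdhb windows were enriched with Jarid1b shRNA and 18 with scramble, and the median log2 ratio turned to −0.14. The reads of single Pcdhb genes on repeated words are uncertain, because the sources used here do not say how reads with several matches were placed. No input or IgG library was analysed here.

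The annotation folds the alternative first exons of Pcdha and Pcdhg into the genes Pcdha11 and Pcdhgc5, and 19 of their 20 transcripts could be named by matching gene spans to RefSeq within 500 bases. Of the 10 transcript starts of Pcdha11, 6 were enriched for H3K4me3 in the Jarid1b shRNA library and 8 in the scramble library, against 59.9% of all 46015 annotated transcript starts in each library. Of the 10 of Pcdhgc5, 4 were enriched in the Jarid1b shRNA library and 5 in the scramble library. Unlike at the Pcdhb starts, reads summed over the 8 alternate Pcdha starts were raised in the 500 bases after the start. They were at 12.4-fold of the genome rate with Jarid1b shRNA and 8.7-fold with scramble. Single starts differed, and the start windows of Pcdha2, Pcdha3 and Pcdha9 were enriched in neither library. In the same sum a second stretch from 1.5 to 2 kb downstream reached 11.6-fold with Jarid1b shRNA and 7.6-fold with scramble. Repeated sequence was common there too, with 58.6% of words found once in the first 500 bases.

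The C-type promoters, which are used constitutively in many neurons rather than chosen at random, included the most marked clustered starts. Pcdhac2 had 55 reads (20.9 RPM) with Jarid1b shRNA and 35 reads (6.79 RPM) with scramble, a log2 ratio of 1.62 (0.98 to 2.28) that was called higher. Of the compared transcript starts, 1 of 8 of Pcdha11 (Pcdhac2) and 1 of 6 of Pcdhgc5 (Pcdhgb6, below) were called higher and 0 lower. Called higher starts made up 23.1% and called lower starts 2.62% of the 27353 transcript starts compared over all genes. The Pcdhac2 window had 58.45% GC, and no alternative for scaling or GC content is given for these 2 calls. Pcdhgc3 had 40 reads (15.2 RPM) with Jarid1b shRNA and 71 reads (13.8 RPM) with scramble, the most of any clustered start with scramble, and a ratio of 0.14 (−0.46 to 0.72). Pcdhac1 had 9 reads with Jarid1b shRNA and 19 with scramble, with a ratio of −0.11 (−1.44 to 1.10). Pcdhgc4 had 11 reads with Jarid1b shRNA and 33 with scramble, with a ratio of −0.62 (−1.75 to 0.40), and the start named Pcdhgc5 itself had 6 reads with Jarid1b shRNA and 7 with scramble and was not enriched in either library.

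Among the alternate Pcdhg starts, Pcdhga8 and Pcdhga11 were the most marked with scramble, and Pcdhgb6 differed between the libraries. Pcdhga8 had 28 reads with Jarid1b shRNA and 39 with scramble, with a ratio of 0.49 (−0.26 to 1.23). Pcdhga11 had 11 reads with Jarid1b shRNA and 39 with scramble, and its ratio of −0.86 (−1.97 to 0.14) was the lowest of the compared clustered starts but was not called. Pcdhgb6 had 22 reads with Jarid1b shRNA and 16 with scramble, a log2 ratio of 1.43 (0.43 to 2.45) that was called higher. Downstream of Pcdhga12, in the window from 1.5 to 2.5 kb, there were 32 reads with Jarid1b shRNA and 20 with scramble, a ratio of 1.65 (0.80 to 2.53). A lincRNA, Gm16882, starts inside the 1 kb bin that held most of those reads, 0.4 kb from its centre, so they cannot be given to Pcdhga12 alone.

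Across the 911.589 kb from the first Pcdha start to the last Pcdhg end, 5.38% of 1 kb bins were enriched for H3K4me3 with Jarid1b shRNA and 7.03% with scramble, against 1.32% of bins in the genome with Jarid1b shRNA and 1.65% with scramble. Around the Pcdhb genes, 14 of 16 enriched bins in the Jarid1b shRNA library and 19 of 20 in the scramble library lay 1 to 3 kb downstream of an annotated start, where 40 of the 258 bins lay. In the Pcdha part, 3 of 8 enriched bins with Jarid1b shRNA and 5 of 16 with scramble lay there. The bin with the most reads, 47 with Jarid1b shRNA and 109 with scramble, was at the start of Taf7, a general transcription factor gene that sits between the Pcdhb and Pcdhg families. A bin 107.562 kb from the first Pcdha start, 17.2 kb from the nearest annotated gene start, had 21 reads with Jarid1b shRNA and 27 with scramble, while its neighbours had at most 1.

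**Figure D5:**
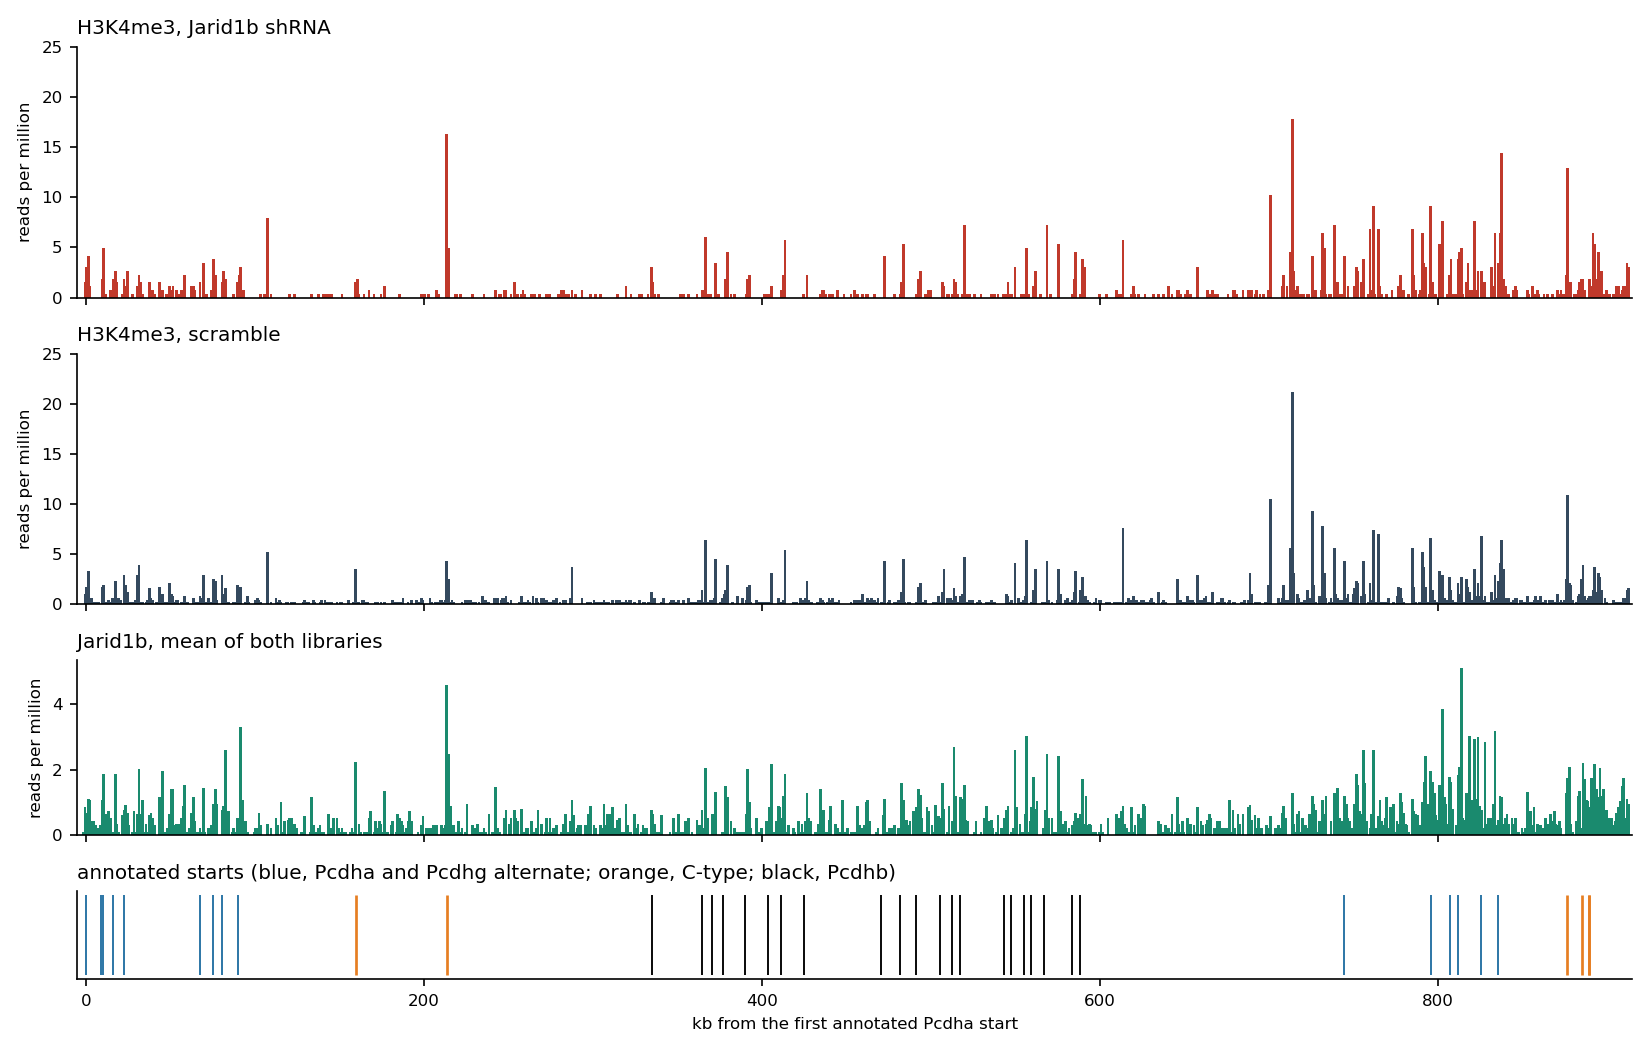
RPM in 1 kb bins across the clustered protocadherins, by distance from the first annotated Pcdha start, for H3K4me3 with Jarid1b shRNA, H3K4me3 with scramble, and the mean of the 2 Jarid1b libraries, with annotated starts below. The highest H3K4me3 bin, with 17.8 RPM with Jarid1b shRNA and 21.1 RPM with scramble, lies at Taf7, and the bin at the Pcdhac2 start holds 16.3 RPM with Jarid1b shRNA and 4.26 RPM with scramble.

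Jarid1b itself was enriched at several starts of non-clustered genes. Of these, 4 of 12 (Pcdh1, Pcdh15, Pcdh18 and Pcdh19) passed the enrichment test in replicate 1 as well as replicate 2, and 0 of 24 clustered genes did, against 7.97% of all genes. Pcdh15 had 23 reads in replicate 1 and 10 in replicate 2, which were 6.78-fold and 7.98-fold of the genome rate. Pcdh1 had 28 and 9 reads, at 8.26-fold and 7.19-fold. Pcdh18 had 9 and 6 reads and Pcdh19 had 10 and 6 reads, at 2.65-fold to 4.79-fold. Pcdh7 had the most reads in replicate 1, 30, at 8.85-fold, but its 8 reads in replicate 2 gave an adjusted p of 0.058 (one-sided Poisson test with Benjamini-Hochberg adjustment), and Pcdh8 with 21 and 7 reads also fell short in replicate 2.

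Jarid1b was enriched in both libraries at 1 of the 10 Pcdha11 transcript starts and 0 of the 10 of Pcdhgc5. The share of all annotated transcript starts was 7.94%. The enriched start was Pcdhac2, with 22 reads in replicate 1 and 10 in replicate 2. The downstream Pcdhb windows held 158 Jarid1b reads in replicate 1 and 62 in replicate 2, at 4.44-fold (3.77 to 5.19) and 4.71-fold (3.61 to 6.04) of the genome rate. No Pcdhb window was enriched in both libraries, against 0.179% of all genes, and 6 were in replicate 1 alone. Against bins of the same GC content the downstream sums were 1.41-fold (1.197 to 1.65) in replicate 1 and 1.37-fold (1.05 to 1.75) in replicate 2. With a background matched for GC content, 0 of the 36 start windows were enriched for Jarid1b in both libraries, as were 132 of all 22367. The Pcdhac2 start is not among these 36 gene-level windows.

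Of the 4 non-clustered starts called higher for H3K4me3, Pcdh1 and Pcdh15 passed the Jarid1b test in both libraries and Pcdh7 and Pcdh8 did not. Pcdh18 and Pcdh19 passed it without being called higher for H3K4me3. Jarid1b reads were at least 5.59-fold in both libraries at all 4, and below that at the other 8. That level was read from these same values, so the split is no test. The ratios and the Jarid1b counts come from separate libraries. Jarid1b reads in replicate 1 averaged 3.70-fold of the genome rate in background bins of 58.0% to 61.5% GC, against 0.906-fold in bins of 40.5% to 44.0%, so base composition moved with both measures, and its part in their coincidence was not tested. CpG content separated most marked from unmarked starts among the non-clustered genes, at shares close to those of all genes. Of the 8 non-clustered starts with an observed to expected CpG ratio of at least 0.5, 8 were enriched for H3K4me3 in both libraries, against 98.1% of all such genes with Jarid1b shRNA and 97.3% with scramble. Of the 4 under 0.5, only Pcdh20 was enriched in both, against 26.5% of all such genes with Jarid1b shRNA and 27.5% with scramble. Of the 24 clustered starts 22 were in this class, and 9.09% of them were enriched with Jarid1b shRNA (Pcdhb1 and Pcdhgc5) and 4.55% with scramble (Pcdhgc5). Of the 2 clustered starts at or over 0.5, Pcdha11 was enriched in both libraries and Pcdha3 in neither. The Pcdha11 and Pcdhgc5 starts here are the gene-level ones, which RefSeq names Pcdha1 and Pcdhga3.

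Within the bodies of the long genes Pcdh15, Pcdh9 and Pcdh11x, single H3K4me3 bins lay far from the start, but enriched bins were rarer than in the genome. With Jarid1b shRNA, 0.512% of 1 kb bins were enriched at Pcdh15, 0.679% at Pcdh9 and 0.633% at Pcdh11x, against 1.32% in the genome. With scramble the shares were 0.705%, 0.792% and 0.633%, against 1.65% in the genome. In Pcdh15 a bin 338.411 kb downstream of the start held the most scramble reads of the gene, 66, more than any bin at its start. In Pcdh9 a bin 672.45 kb downstream had 31 reads with Jarid1b shRNA and 60 with scramble. In Pcdh11x, which was not enriched at its start, a bin 95.633 kb downstream had 19 reads with Jarid1b shRNA and 29 with scramble.

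Genes that act with the protocadherins and other cadherins were described in lists drawn up with earlier results of these data known. Of 12 promoter regulators, 12 were enriched for H3K4me3 with Jarid1b shRNA and 11 with scramble, and of 10 intracellular partners 8 were with Jarid1b shRNA and 9 with scramble. Of 31 other cadherin superfamily genes 18 were enriched in each library, a share close to the 59.9% of all genes with Jarid1b shRNA and 60.0% with scramble. Of the 12 regulators of clustered promoters, among them the insulator protein gene Ctcf and cohesin genes, 2 of 11 compared were called higher (Wiz at 1.22 and Smc3 at 1.05) and 0 lower, with a median ratio of 0.55. Of the 10 partners, which link protocadherins to kinases and to the actin-nucleating WAVE complex, 2 of 9 compared were higher (Ptk2 at 1.33 and Nckap1 at 1.19) and 0 lower, with a median of 0.65. Of the other cadherin superfamily genes, 8 of 18 compared were higher and 0 lower, with a median of 0.89, led by Cdh22 at 2.68 and Dchs1 at 2.24. Fat4, the partner of Dchs1 in planar polarity, had the most Jarid1b in that list, at 8.55-fold of the genome rate in replicate 1 and 14.4-fold in replicate 2. These counts stand beside 24.0% called higher, 2.37% called lower and a median of 0.41 over all compared promoters.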

How the data were processed

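Reads were mapped to mouse mm9 with Bowtie, per the labels' protocols, which also name peak detection with MACS against IgG, which was not used here. The authors deposited aligned reads as intervals with a score column that held 0 in every line and carried no information. Files still held repeated positions (7.56% to 31.5% of reads), so repeats of a strand and 5′ end were reduced to 1 read on chromosomes 1 to 19, X and Y, and reads were counted at their position shifted by 75 bases. Minus-strand Jarid1b reads lie 1 read length to the left as deposited.

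Genes came from GENCODE vM1, and names of alternative starts and the Pcdh9 start from RefSeq. The genome rate used 2558509480 bases other than N. Counts were tested with SciPy 1.17.1 in Python 3.11.15, over all 22367 genes, and the steps were checked on simulated data. The genes named were all non-clustered members, the C-type promoters, the extreme clustered members and up to 3 genes per list. The members, lists and tests were chosen with earlier results of these data known, and the downstream window after its profile was seen. Knockdown of Jarid1b is not measured by these assays. Alternatives covered windows, repeats, shift, scaling, GC content and thresholds.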

Additional observations from a re-analysis of the deposited data

How the results depend on the processing

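Of the alternatives run, 105 values for counts and medians and 157 for compared counts and single ratios stayed within 1.5 times or the interval of the reported value, 24 and 5 moved beyond it, and 2 medians turned in sign as given below. Small ratios within their interval turned too: relative to the median of all promoters Pcdh10 was at −0.23, Pcdh17 at −0.26 and the Pcdhb downstream median at −0.25, which was −0.14 on words found once; Pcdhgc5 was at 0.21 relative to background bins and 0.27 with the GC trend removed, and Pcdh20 was at −0.03 within 500 bases. With windows of 2 kb each side, clustered starts enriched for H3K4me3 numbered 8 with Jarid1b shRNA and 10 with scramble, 12 were compared, 0 were called higher and their median log2 ratio turned to −0.00058; such windows take in the marked stretch of the Pcdhb exons, and 1 clustered start was enriched for Jarid1b. With windows of 500 bases each side, 0 clustered and 2 non-clustered starts were called higher and 1 non-clustered start was enriched for Jarid1b. After removing the trend with GC content, 2 clustered starts (Pcdha11 and Pcdhb1) and 1 non-clustered start (Pcdh8) were called higher, Pcdh1 fell to 0.79, Pcdh15 to 0.60 and Pcdh19 to −0.42, and downstream of the Pcdhb starts the median was −0.59 with 3 called lower; the cause was not tested. Relative to the median of all promoters, 0 clustered starts were called higher and 1 Pcdhb downstream window lower; relative to background bins (−0.24), 1 such window was called higher, as with all deposited reads, with which 4 clustered starts were enriched with scramble. At an adjusted p under 0.001, 1 clustered start was enriched with scramble and 1 non-clustered start for Jarid1b. Against GC-matched background, 4 Pcdhb downstream windows were enriched for H3K4me3 with Jarid1b shRNA and 8 with scramble, and 0 non-clustered starts for Jarid1b. Jarid1b was enriched at 7 non-clustered starts with the genome rate only and at 7, with 1 clustered, after pooling. Leaving out either Jarid1b replicate gave 4 to 7 non-clustered and 0 clustered starts.

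A minimum of 20 reads left 21 of the 24 clustered starts, and Pcdh9, Pcdh11x and Pcdh12, out of the comparison between libraries. No paired analysis was possible because each H3K4me3 condition has 1 library and replicate numbers exist only for Jarid1b, whose libraries share fragments.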
